A study of Mus musculus with 24 samples.

Results

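Astrocytes from LPS-injected mice were compared between Serpine2 knockout and control animals, using the 3 libraries labelled as LPS Serpine2 knockout astrocytes and the 3 labelled as LPS Serpine2 control astrocytes, 6 of the 24 libraries of the study. The study sequenced RNA from microglia and from astrocytes of adult mice, with saline or LPS (lipopolysaccharide, a component of the outer membrane of bacteria) as the injection. Knockout mice were Serpine2-/-, and the controls were littermates that carried at least 1 working Serpine2 allele, so heterozygous mice could be among them. All mice were perfused with buffered saline, the cerebral cortex was dissociated with papain, and astrocytes were bound to antibody-coated dishes (immunopanning) before RNA was taken. In the LPS astrocytes each genotype had males as numbers 1 and 2 and a female as number 3. The saline astrocyte controls 1, 2 and 3 were female, male and male, and the saline knockouts male, male and female. Every microglia group held both sexes. The mouse strain, the LPS dose and the time between injection and dissection were not given in the sources used here. Expression is given in CPM (each gene's count as a share of the library's gene counts, scaled between libraries), and differences are knockout minus control on the log2 scale.

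Serpine2 encodes serpin E2, also called protease nexin-1, a secreted inhibitor of serine proteases such as thrombin, urokinase and tissue plasminogen activator. In the brain it is made by glia, and it limits the action of these proteases on matrix proteins and on protease-activated receptors. Astrocytes of LPS-injected mice become reactive: they raise acute-phase and antigen-presentation genes, interferon-stimulated genes and chemokines, in part through cytokines released by microglia. The series title sets microglia, in which antimicrobial genes changed without serpin E2, against astrocytes, so the question here was which genes differed in astrocytes under LPS.

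The 6 libraries held 10944765 to 25135252 gene counts and detected 22272 to 25177 genes. The 10 most abundant genes took 47.7% to 66.4% of those counts. Sex-linked transcripts matched the label in all 6. The 12 astrocyte markers were abundant in every library, with a summed level of 18110 to 20780 CPM in controls and 16420 to 22870 CPM in knockouts. The size of the LPS response differed between replicate numbers in both genotypes. The median interferon-induced GTPase gene (14 tested, enzymes that attack intracellular pathogens) stood above the mean of the saline controls by 5.31, 4.49 and 1.17 on the log2 scale in controls 1, 2 and 3. In knockouts 1, 2 and 3 it stood above them by 6.14, 3.67 and 2.00. Both libraries of number 3 were thus the lowest of their genotype, and knockout 1 was the highest of the 6. The same order of numbers within each genotype was seen for the 13 genes that reactive astrocytes raise after many insults (5.10, 4.76 and 1.39 in controls, 5.57, 3.59 and 1.79 in knockouts). The 12 genes described as the A1 set, raised by LPS, gave 6.52, 5.77 and 2.91 in controls and 5.94, 4.91 and 3.53 in knockouts. Over the 9499 genes averaging at least 5 CPM, the replicate number accounted for a median of 61.0% of the variation in log2 CPM among the 6 libraries, and the genotype for 6.61%, with more degrees of freedom for the number. Sex was the same in both genotypes of a number and differed only in number 3, so the effects of sex and of number 3 cannot be told apart.

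**Figure D1:**
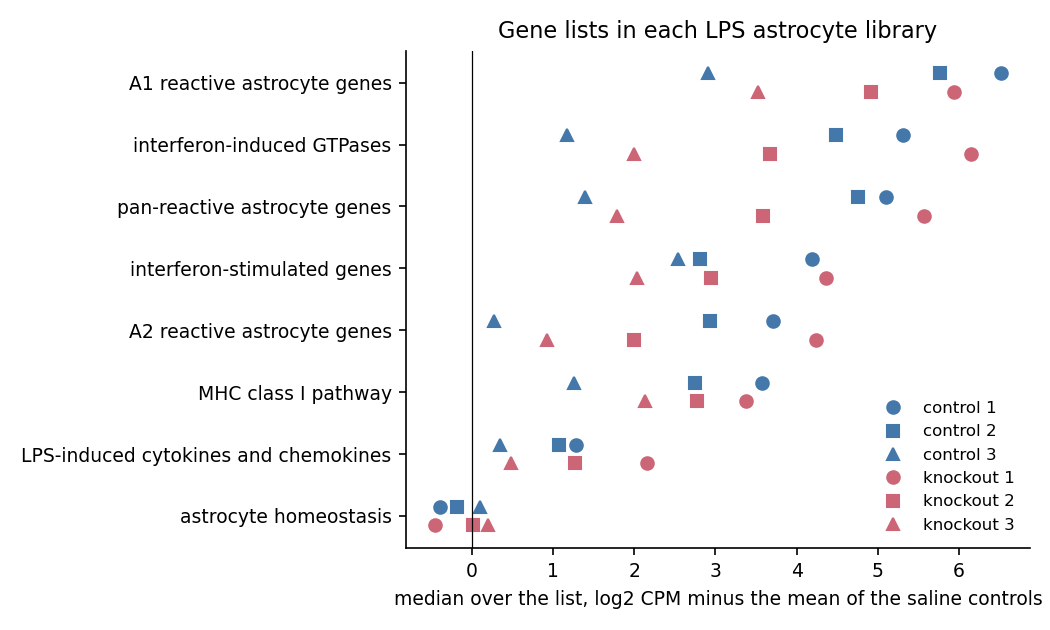
Median log2 CPM of the members of 8 gene lists in each LPS astrocyte library, minus the mean of the saline controls (blue controls, red knockouts; circles, squares and triangles are numbers 1, 2 and 3). In every list but astrocyte homeostasis, triangles lie lowest within each genotype and circles highest, and the ranges of blue and red points overlap along every row.

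The targeted gene separated the genotypes. Serpine2 stood at 107, 80.1 and 78.2 CPM in controls 1, 2 and 3 (2276, 1095 and 949 counts). In knockouts 1, 2 and 3 it stood at 16.9, 16.4 and 18.4 CPM (459, 305 and 360 counts). The groups did not overlap, and the knockouts lay close together. Serpine2 fell by 2.36 on the log2 scale (SE 0.25, edgeR adjusted p 0.000747), from a mean of 88.6 ± 16.3 to 17.2 ± 1.02 CPM (SD, n = 3 each). Within numbers 1, 2 and 3 the difference was −2.66, −2.28 and −2.08, and the knockout level was 15.7%, 20.5% and 23.5% of the control level. Some reads were still assigned to Serpine2 in each knockout, and the exons deleted in the allele were not given in the sources used here. The gene (ENSMUSG00000026249) lies on chromosome 1 from 79794197 to 79861180 on the minus strand of GRCm38.

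**Figure D2:**
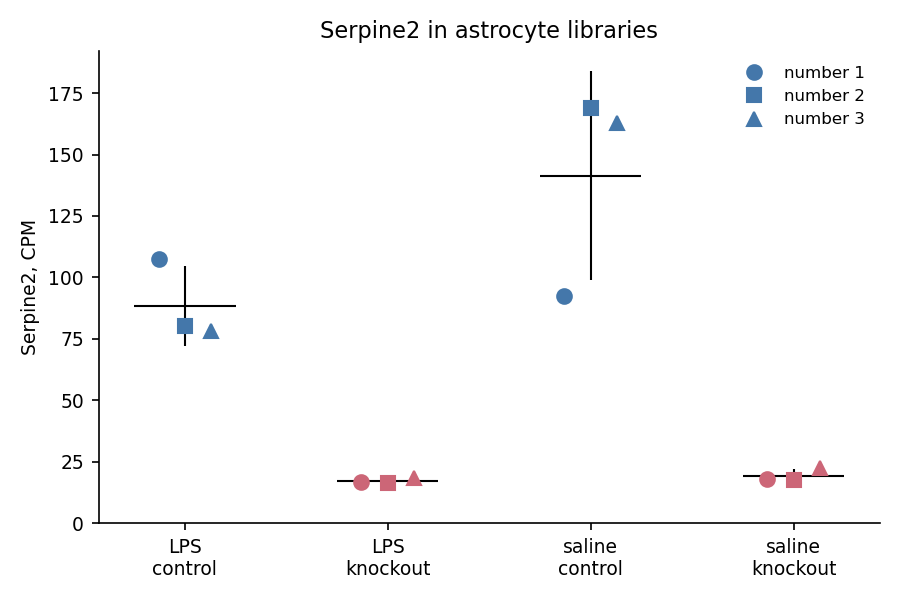
Serpine2 in CPM in each astrocyte library, by injection and genotype; symbols are replicate numbers, horizontal bars are group means and vertical bars are the SD over 3 libraries. The 3 LPS knockouts lie between 16.4 and 18.4 CPM and the 3 LPS controls between 78.2 and 107 CPM.

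Beyond Serpine2, no gene passed the test in LPS astrocytes. Of 18188 genes tested, edgeR called 1, or 0.0055%, and DESeq2 called the same 1 of 18160 (0.00551%). At an unadjusted p under 0.05 there were 497 genes (2.73%), of which 269 were higher (1.48%) and 228 lower (1.25%) in knockouts. With the replicate number as a block, 623 genes (3.43%) had an unadjusted p under 0.05 and 1 was called, Serpine2. The 3 knockout libraries lay all above the 3 controls for 540 genes (2.97%) and all below them for 547 (3.01%), 5.98% together. The estimates were centred near 0, with a median over all genes tested of 0.03. For genes averaging at least 5 CPM the median SE was 0.31, and the 95% interval of the difference lay within a 2-fold change in either direction for 6248 of 9499 genes. For the others the interval reached 2-fold or past it. These intervals are not adjusted for the number of genes tested, so they do not give the size that the adjusted test could detect. Slc43a2, 2.01-fold lower in knockouts with an SE of 0.27, was not called.

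**Figure D3:**
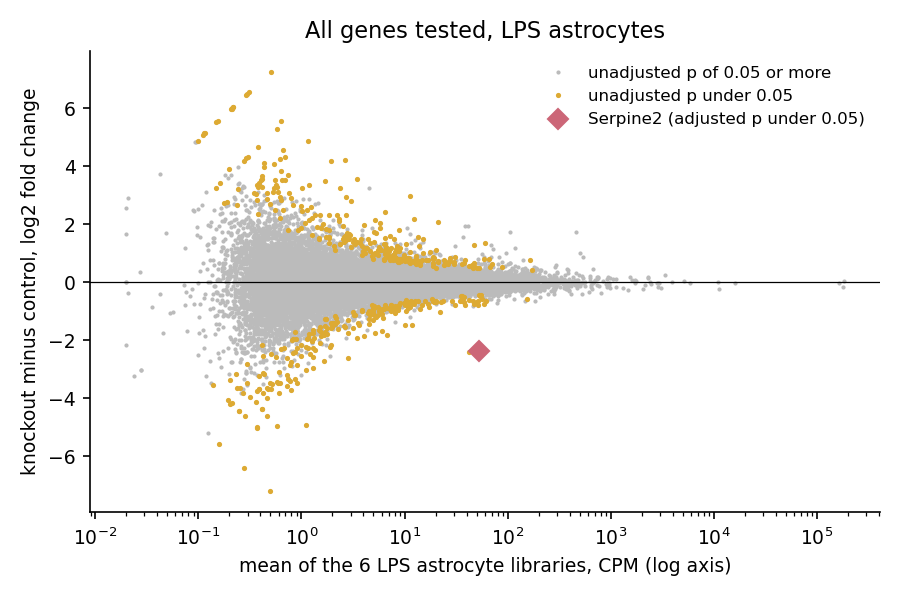
Knockout minus control log2 fold change of each of the 18188 genes tested, against its mean level in the 6 LPS astrocyte libraries (log axis). Serpine2 is the only gene past the adjusted threshold, and the spread around 0 widens towards low levels.

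The differences taken within each replicate number had little in common between numbers. Knockout 1 differed from control 1 by more than 2-fold in 728 of the 9499 genes (7.66%), knockout 2 from control 2 in 700 (7.37%) and knockout 3 from control 3 in 600 (6.32%). Only 8 genes (0.0842%) did so in the same direction in all 3 numbers, 4 up and 4 down. Across genes the differences of numbers 1 and 2 correlated at −0.12, those of 1 and 3 at −0.01 and those of 2 and 3 at 0.03, where genes are not independent replicates. Over all genes tested, 4285 (23.6%) had 1 sign in all 3 numbers, 2221 up (12.2%) and 2064 down (11.3%). The 8 genes beyond 2-fold throughout, named after their values were seen, were Serpine2, Syt15, Pigz and Fezf2 on the lower side and Cdh5, Lrrc32, Abca9 and Pglyrp1 on the higher side. Apart from Serpine2, their edgeR adjusted p was 1. In saline astrocytes the fitted difference had the opposite sign for Syt15 (1.2), Pigz (0.09), Fezf2 (0.13), Lrrc32 (−0.94), Abca9 (−1.11) and Pglyrp1 (−1.29). It had the same sign for Serpine2 (−2.88) and Cdh5 (0.75).

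Abca9, an ATP-binding cassette transporter gene, gave the smallest unadjusted p of the other 7. It stood at 0.66, 1.68 and 3.38 CPM in controls 1, 2 and 3 and at 3.20, 10.3 and 11.6 CPM in knockouts (log2 2.16, SE 0.59, edgeR unadjusted p 0.002). Control 3 lay just above knockout 1, so the groups overlapped although each knockout was above the control of its number. Fezf2, a transcription factor of deep-layer cortical neurons, stood at 7.78, 12.5 and 31.7 CPM in controls and at 2.98, 5.82 and 9.80 CPM in knockouts (log2 −1.48, SE 0.45, unadjusted p 0.0046). It too overlapped between genotypes, because its level moved with the number. The receptor gene Lrrc32, which holds latent TGF-beta on the cell surface, gave within-number differences of 1.66, 1.74 and 1.87 from levels of 0.49 to 11.5 CPM.

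A further 27 genes were named by a fixed rule from the 224 higher and 207 lower annotated genes that averaged at least 5 CPM and did not overlap between genotypes. None was called, and each had an edgeR adjusted p of 1. Among the lower ones, Slc43a2, a transporter of large neutral amino acids (chromosome 11, 75531694 to 75577575), had the smallest unadjusted p. It stood at 25.3, 30.8 and 33.5 CPM in controls and at 14.8, 12.6 and 17.1 CPM in knockouts (log2 −1.01, SE 0.27, unadjusted p 0.0014). Every knockout lay below every control, as that rule required, and the within-number differences were −0.77, −1.29 and −0.97. Pigz, a mannosyltransferase of GPI anchor synthesis, stood at 9.62, 5.34 and 8.74 CPM in controls and at 1.77, 1.13 and 4.24 CPM in knockouts (log2 −1.73, SE 0.48). Thbs4, the gene of the secreted matrix protein thrombospondin-4, stood at 8.53, 21.9 and 14.2 CPM against 6.11, 7.27 and 2.86 CPM (log2 −1.45, SE 0.42). Both were separated between genotypes by a narrow margin in their closest libraries.

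Zxdc, a zinc finger protein gene, and Sike1, an inhibitor of the kinases that activate interferon genes, had the most even within-number differences of the lower group. Those of Zxdc were −0.61, −0.64 and −0.64, from 23.2, 24.8 and 25.6 CPM in controls to 15.2, 15.8 and 16.3 CPM in knockouts. Those of Sike1 were −0.54, −0.57 and −0.58, from 39.6, 45.5 and 45.3 CPM to 27.2, 30.6 and 30.3 CPM. For both genes the replicates of a genotype lay closer together than the genotypes did, with an unadjusted p of 0.0081 and 0.0089. Coq7, a hydroxylase of ubiquinone synthesis, stood at 8.77, 12.4 and 11.5 CPM against 5.41, 5.06 and 5.26 CPM (log2 −1.05, SE 0.32). The other lower genes were Arhgap23 (−0.74), Sec14l5 (−0.98), H1f0 (−0.67), Fbxo10 (−0.79), Taf6 (−1.12), Abca8b (−1.10) and Cep83os (−1.20), the last a transcript opposite Cep83 for which it was not given whether reads were counted by strand.

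On the higher side Seh1l, a nuclear pore protein gene, had the smallest unadjusted p, 0.0031. It stood at 4.86, 4.02 and 4.70 CPM in controls and at 15.6, 7.27 and 8.37 CPM in knockouts (log2 1.20, SE 0.35). Knockout 1 lay well above the other two knockouts. Camk2d, a subunit of calcium/calmodulin-dependent kinase II (chromosome 3, 126596302 to 126846326), was more even, at 40.3, 35.3 and 34.1 CPM against 66.5, 52.9 and 56.8 CPM. Its difference was 0.68 (SE 0.20, unadjusted p 0.0038), and 0.72, 0.58 and 0.73 within the numbers. Igfbp2, a secreted binding protein of insulin-like growth factors, stood at 46.8, 44.8 and 52.8 CPM against 64.5, 103 and 88.5 CPM (log2 0.82, SE 0.26). Ehmt2, which encodes a histone methyltransferase, stood at 26.0, 19.2 and 24.2 CPM against 34.9, 33.1 and 44.4 CPM (log2 0.69, SE 0.22). In each of these 3 genes the lowest knockout lay above the highest control, as the naming rule required.

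In some of the remaining higher genes 1 knockout library lay well above the other two. Ppp4r4, a phosphatase regulatory subunit, stood at 7.55, 3.82 and 17.5 CPM in knockouts 1, 2 and 3 against 2.63 to 3.82 CPM in controls, so knockout 2 all but met control 1. Msrb1, a methionine sulfoxide reductase, stood at 5.93, 9.05 and 20.0 CPM in knockouts against 3.30 to 4.83 CPM in controls. Both were highest in knockout 3. The rest were Klhl18 (1.16), Tent4b (0.66), Pcid2 (0.86), Tmem170 (0.99), Mtx1 (1.20), Ranbp1 (1.21), Scg2 (1.21) and Ptprb (1.35), a receptor phosphatase of endothelial cells whose 95% interval ran from −0.25 to 2.95.

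**Figure D4:**
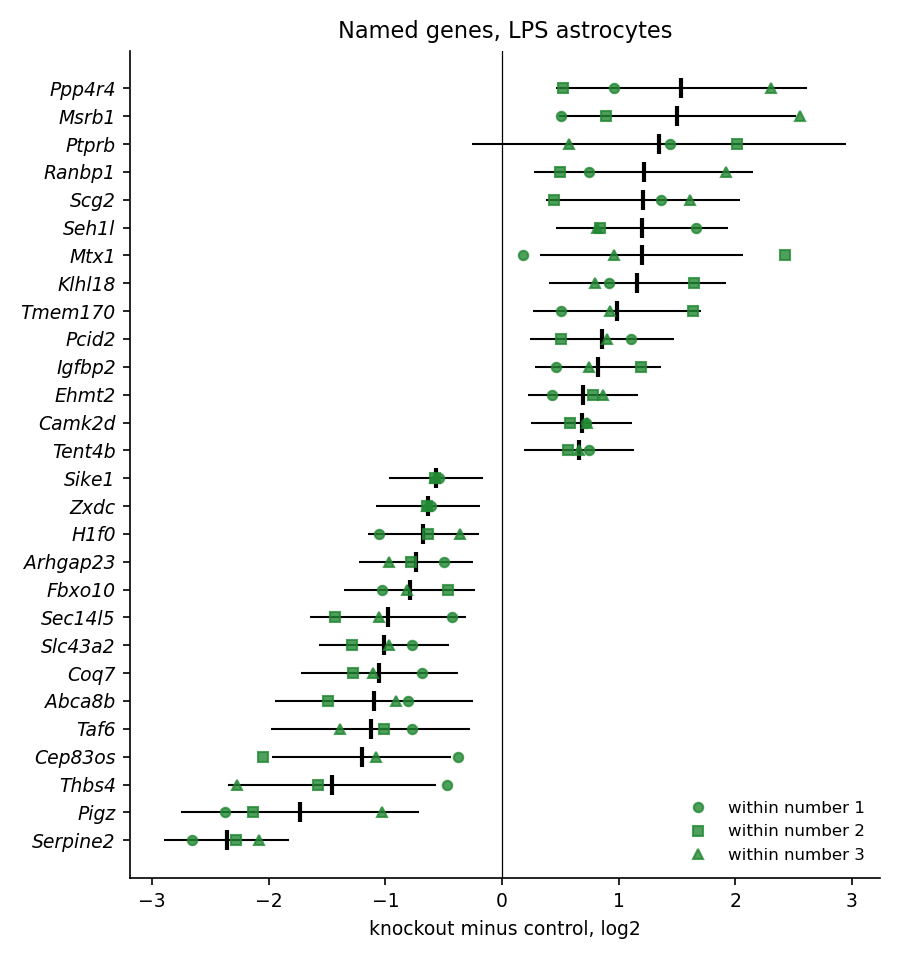
Knockout minus control for Serpine2 and the 27 other named genes in LPS astrocytes: black ticks and lines are the fitted log2 fold change and its 95% interval, green symbols the difference within each replicate number. Each symbol lies on the side that the rule required, and the interval of Serpine2 (−2.89 to −1.83) is the farthest from 0.

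Genes of the proteases that serpin E2 inhibits were not called. Of 19 tested genes of the plasminogen and thrombin system, 10 were higher and 9 lower in knockouts, with a median of 0.11. None had groups that did not overlap, against 5.98% of all genes tested. Plat, tissue plasminogen activator, stood at 62.5, 39.3 and 14.4 CPM in controls and at 106, 38.8 and 18.6 CPM in knockouts, with the numbers in the same order in both genotypes. The thrombin receptor gene F2r gave 9.43, 13.6 and 6.35 CPM against 16.8, 7.33 and 7.56 CPM, and the groups overlapped. Plau, urokinase, had an unadjusted p of 0.044 but was low throughout, at 0.073 to 0.38 CPM in controls and at 0.037, 0.86 and 2.2 CPM in knockouts. Htra1, a secreted serine protease abundant in astrocytes, stood at 736, 450 and 511 CPM against 789, 519 and 1035 CPM (log2 0.47, 95% interval −0.08 to 1.01). Knockout 3 was the high library.

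Among 16 other serpins tested, none was called, 8 were higher and 8 lower, and the median was 0.00. Serpinh1, a chaperone of collagen, had an unadjusted p of 0.046 and overlapped between groups, at 13.6, 5.85 and 21.6 CPM against 14.1, 24.8 and 33.1 CPM. Serpinf2, the plasmin inhibitor, had an unadjusted p of 0.012 from 3.65 CPM in knockout 1 alone, with at most 0.11 CPM in the other 5 libraries. Serpina3n, the reactive astrocyte serpin, stood at 1362, 1404 and 135 CPM in controls and at 1111, 1361 and 393 CPM in knockouts (log2 −0.02, 95% interval −1.55 to 1.51). Serping1, the inhibitor of the first complement component, stood at 151, 113 and 10.6 CPM against 85.9, 125 and 45.6 CPM (log2 −0.10, interval −1.66 to 1.46). In both genes control 3 was the lowest library and knockout 3 the next, and the difference between genotypes lay well inside the spread of either group. Serpinb6a, an intracellular serpin, was the one whose groups did not overlap, at 14.3, 17.6 and 13.8 CPM against 13.4, 8.51 and 11.6 CPM (log2 −0.45, SE 0.27). It was 6.25% of the 16 tested, close to the 5.98% of all genes tested.

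Part of the reactive astrocyte genes rose with LPS, and none was called between genotypes. Against saline, LPS changed 141 genes upward (0.775% of genes tested) and 28 downward (0.154%) in controls by edgeR. Those raised included 10 of the 12 tested A1 genes, 5 of 13 pan-reactive genes and 1 of 12 A2 genes. Between genotypes under LPS, 9 of 13 pan-reactive genes were higher (median 0.12), 6 of 12 A1 genes (median −0.03) and 9 of 12 A2 genes (median 0.29), the last a set described after ischemia. No member's groups were apart, against 5.98% of all genes tested. Lcn2, the iron-scavenging lipocalin of reactive astrocytes, stood at 1062, 1036 and 27.0 CPM in controls and at 822, 1122 and 369 CPM in knockouts (log2 0.12, 95% interval −1.99 to 2.24). Gfap, the intermediate filament gene of astrocytes, stood at 634, 999 and 236 CPM against 560, 1030 and 333 CPM (log2 0.04, interval −0.88 to 0.96). For both, numbers 1 and 2 were close between genotypes, and both libraries of number 3 were low, the control more so.

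C3, the complement component used as an A1 marker, stood at 25.1, 14.0 and 1.07 CPM in controls and at 13.5, 26.3 and 7.66 CPM in knockouts. The class I molecule gene H2-D1 stood at 285, 200 and 58.9 CPM against 332, 242 and 157 CPM, each knockout above the control of its number (0.22, 0.27 and 1.42) with the groups overlapping. Over the MHC class I pathway, 16 of 22 genes were higher, at a median of 0.20, which was 0.04 in number 1, −0.02 in number 2 and 0.64 in number 3. Reads that aligned to more than 1 place had a row of their own, which was dropped, so near-identical class I genes may have lost counts. S1pr3, a sphingosine phosphate receptor of the pan-reactive set, had an unadjusted p of 0.025, and its knockouts stood at 21.1, 5.28 and 1.33 CPM against 2.06 to 3.02 CPM in controls. Its high value was that of knockout 1, and knockout 3 lay below every control.

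Among the 27 gene lists the interferon-induced GTPases had the largest median between genotypes, and it turned with 1 library. All 14 tested were higher in knockouts by the fitted value, with a median of 0.77 and none called. The median within numbers 1, 2 and 3 was 1.01, −0.45 and 0.50, so that the direction was not shared. Without knockout 1 the fitted median turned to −1.23, and without control 1 it was 1.68. Each of these fits kept the other library of number 1, the number with the strongest response in both genotypes. With the replicate number as a block, which compares within numbers, the median was 0.37. Iigp1 stood at 165, 42.9 and 11.05 CPM in controls and at 457, 26.9 and 11.13 CPM in knockouts (log2 1.18, SE 1.33). Irgm1 stood at 70.6, 42.0 and 23.3 CPM against 234, 46.3 and 19.8 CPM (log2 1.14, SE 0.78). In both genes knockout 1 was the only knockout above the highest control. Near-identical copies of the Gbp genes may also have lost counts, because the row of reads that aligned to more than 1 place was dropped.

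The broader interferon-stimulated genes and the chemokines also had knockout 1 as the high library in many members. Cxcl10, a chemokine that interferon induces, stood at 466, 135 and 32.4 CPM in controls and at 2052, 47.5 and 10.9 CPM in knockouts. Knockout 1 was the highest of the 6 libraries and knockout 3 the lowest, and the fitted difference of 1.73 had a 95% interval of −1.96 to 5.43. Of 32 interferon-stimulated genes tested, 22 were higher (median 0.16), with medians of 0.47, 0.26 and −0.54 within the numbers. Of 22 LPS-induced cytokines and chemokines, 16 were higher (median 0.64), with 0.90, 0.37 and −0.12 within the numbers. Without knockout 1 but with control 1 kept, their medians were −0.72 and −0.06. With the replicate block they were −0.04 and 0.41. Ccl2, the monocyte chemoattractant, was at 47.6 CPM in knockout 1 and at 1.07 to 7.40 CPM in the other 5 libraries. Il1a, interleukin-1 alpha, was the 1 cytokine whose groups did not overlap, at 0.75, 0.73 and 0.58 CPM against 1.73, 2.32 and 1.53 CPM (edgeR unadjusted p 0.094). It was 4.55% of the 22 tested, against 5.98% of all genes tested. Among 28 JAK-STAT genes, which relay interferon signals, 25 were higher at a median of 0.22, with Irf1, an interferon regulatory factor, at 1.35 (SE 0.70). The list median was −0.23 without knockout 1 and 0.11 with the replicate block.

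Genes of antimicrobial proteins, the group named in the series title, were at low levels in most cases and none was called. Of 34 listed, 18 passed the filter on low counts, and 14 of these were higher and 4 lower in knockouts, with a median of 0.34. That median was −0.05, 0.40 and 0.63 within numbers 1, 2 and 3. It was −0.40 without knockout 2 but with control 2 kept, and 0.66 with the replicate block. Pglyrp1, a peptidoglycan recognition protein that kills bacteria, stood at 1.08, 4.61 and 0.33 CPM in controls and at 16.5, 13.5 and 2.50 CPM in knockouts (log2 2.44, SE 0.79, unadjusted p 0.0068). Each knockout exceeded the control of its number (3.80, 1.53 and 2.58), and knockout 3 lay below control 2, so the groups overlapped. Saa3, an acute-phase protein, stood at 177, 285 and 22.2 CPM against 150, 389 and 93.9 CPM. Lyz2, lysozyme, stood at 10.6, 7.53 and 13.6 CPM against 5.08, 22.4 and 11.7 CPM. S100a8 and S100a9, the calprotectin subunits, reached 6.52 and 10.4 CPM in knockout 2 and at most 3.51 and 1.56 CPM in the controls. The sum of the 12 neutrophil markers was highest in the same library, 26.3 CPM, against 2.58 and 4.44 CPM in knockouts 1 and 3 and 5.99 to 8.19 CPM in controls. Of the 12 neutrophil markers, 2 were at 0 in all 6 libraries, the granule genes Camp and Ltf. Ngp, another granule gene, stood at 0.28, 0.88 and 0.25 CPM in controls and at 0.11, 1.02 and 0 CPM in knockouts. Retnlg stood at 0.94, 0.59 and 0 CPM in controls and at 0.11, 1.67 and 0 CPM in knockouts. The part of neutrophil RNA in the antimicrobial values was not tested.

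Genes of the resting functions of astrocytes had narrow intervals. Of 25 tested, 17 were higher at a median of 0.05, and for 24 the 95% interval lay within a 2-fold change. Slc1a2, the main glutamate transporter, stood at 11027, 12252 and 9592 CPM in controls and at 12456, 13419 and 7202 CPM in knockouts (log2 0.01, SE 0.26). Glul, glutamine synthetase, stood at 2110, 2929 and 4120 CPM against 2209, 3007 and 2971 CPM. The general astrocyte marker Aldh1l1, not a member of that list, stood at 125, 130 and 116 CPM against 123, 129 and 118 CPM. These 3 genes overlapped between genotypes, and Aldh1l1 varied least of them. Kcnj10, the inward rectifier potassium channel, was the 1 member whose interval was wider (−0.26 to 1.49), at 136, 278 and 283 CPM against 109, 436 and 523 CPM. Among 21 astrocyte-secreted synapse regulators 14 were higher (median 0.09). Thbs4, described above and lower, was the only one with groups apart (4.76%, against 5.98% of all genes tested).

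Some lists moved less between numbers. The TGF-beta pathway had 21 of 26 genes higher at a median of 0.23, with 0.26, 0.23 and 0.03 within the numbers. Its 4 members with an unadjusted p under 0.05 were all higher: Id3, Lrrc32, Smad3 and Tgfb1. Id3, a TGF-beta and BMP target, stood at 62.0, 56.7 and 49.3 CPM in controls and at 61.2, 85.5 and 112 CPM in knockouts (log2 0.62, SE 0.24). The signal transducer gene Smad3 stood at 30.0, 22.1 and 10.3 CPM against 37.6, 30.3 and 37.2 CPM (log2 0.75, SE 0.31). Knockout 1 did not exceed control 1 in Id3. All 3 Smad3 knockouts were above the controls, but by a narrow margin, 30.3 CPM in knockout 2 against 30.0 CPM in control 1. Smad3 was the only 1 of the 26 with groups apart (3.85%, against 5.98% of all genes tested). Tgfb1, the ligand, stood at 3.68, 3.95 and 3.46 CPM against 7.62, 13.4 and 2.81 CPM, with knockout 3 the lowest of all.

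Of 24 unfolded protein and heat shock genes, 20 were higher at a median of 0.23, and 8 had all 3 within-number differences above 0. Manf, a secreted factor of the endoplasmic reticulum stress response, stood at 25.3, 27.5 and 16.7 CPM against 32.1, 33.2 and 33.0 CPM (log2 0.50, SE 0.25). Pdia6, a protein disulfide isomerase, stood at 28.4, 31.5 and 32.2 CPM against 37.7, 37.2 and 36.2 CPM (log2 0.27, SE 0.21). In both the groups did not overlap, with differences under 2-fold. They were 8.33% of the 24 tested, against 5.98% of all genes tested. Among 24 collagen and matrix genes 16 were higher (median 0.24), and Lamc1, a laminin chain, stood at 62.2, 40.7 and 25.6 CPM against 123, 52.1 and 47.7 CPM (unadjusted p 0.032). Cholesterol synthesis and uptake had 19 of 26 genes lower, at a median of −0.08. Mvk, mevalonate kinase, stood at 10.8, 18.1 and 17.4 CPM against 11.9, 9.75 and 7.81 CPM (log2 −0.65, SE 0.31, unadjusted p 0.049), with the lowest control just below the highest knockout. Of 25 cell cycle genes 16 were lower at a median of −0.22, with 0.26, −0.58 and −0.52 within numbers 1, 2 and 3 and −0.78 without knockout 1. Cdk1, the mitotic kinase, was at 0 in all 3 knockouts and at 0.094 to 0.50 CPM in controls. Mki67, a marker of dividing cells, stood at 5.19, 6.44 and 4.62 CPM against 4.31, 0.86 and 1.07 CPM. Over all genes tested, 52.8% were higher. No member of any of the 27 lists was called.

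**Figure D5:**
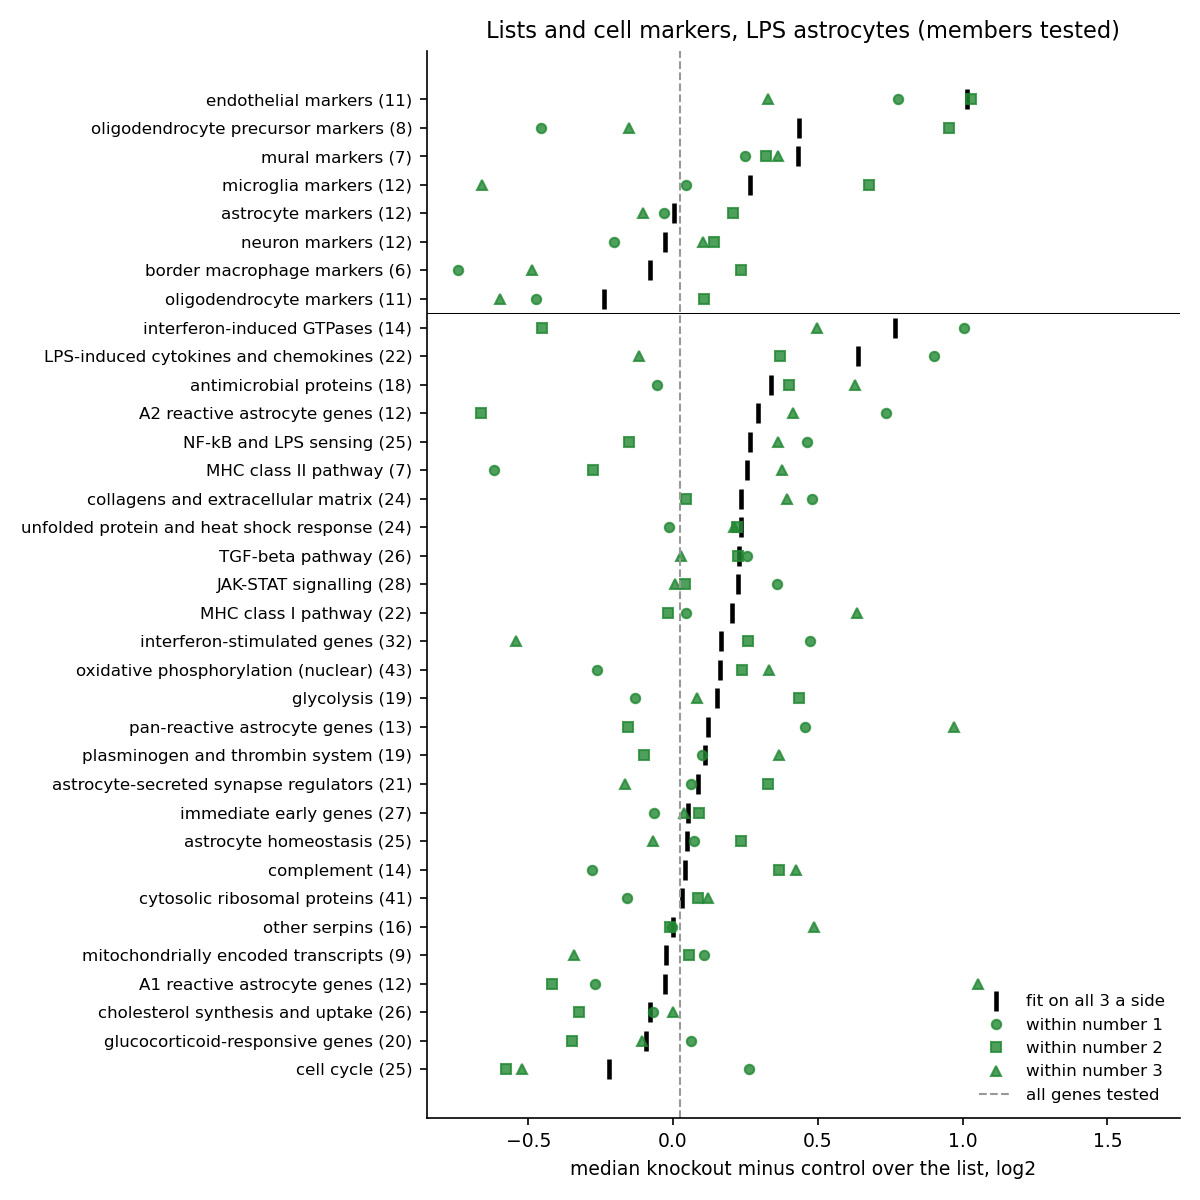
Median knockout minus control log2 difference over the members of each gene list (lower block) and cell marker list (upper block) with at least 5 tested members; black ticks are from the fit on 3 libraries a side, green symbols are medians within each replicate number, and the dashed line is the median of all genes tested. Symbols of a list mostly lie on both sides of the dashed line. Endothelial markers, mural markers, the collagen and matrix list and the TGF-beta pathway have all 3 symbols to its right, number 3 of the TGF-beta pathway barely so. Cholesterol synthesis and uptake has all 3 to its left.

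Markers of other cells of the cortex were present, and none was called. The 11 endothelial markers were all higher in knockouts, at a median of 1.01, and 9 of them had 1 sign in all 3 numbers. Their summed level was 22.9, 53.2 and 22.8 CPM in controls and 48.3, 107 and 40.8 CPM in knockouts, so the groups overlapped while each knockout exceeded the control of its number. In saline astrocytes it was 5.03 to 14.9 CPM. Without knockout 2 the median difference was 0.32. Cdh5, the endothelial cadherin, stood at 2.88, 6.51 and 0.66 CPM against 9.57, 13.4 and 2.30 CPM. Ly6c1, which endothelium expresses, was the member with an unadjusted p under 0.05 (0.043), at 4.29, 5.34 and 0.99 CPM against 5.93, 22.8 and 3.98 CPM. Ptprb and Lrrc32, described above, and Eng of the TGF-beta list (2.40, 5.12 and 1.15 CPM against 2.72, 15.5 and 2.30 CPM) are also known in endothelium, and the part of endothelial RNA in these values was not tested.

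Of 7 tested markers of mural cells, the pericytes and smooth muscle of vessels, 6 were higher, at a median of 0.43, with 0.25, 0.32 and 0.36 within numbers 1, 2 and 3. Without knockout 2 that median was 0.13 and without control 2 it was 0.78. Their summed level overlapped, at 115, 113 and 103 CPM in controls and 146, 134 and 99.6 CPM in knockouts. Vtn, vitronectin, had groups apart, at 5.80, 4.61 and 4.86 CPM against 6.55, 21.1 and 6.28 CPM (edgeR unadjusted p 0.035). It was 1 of the 7 tested (14.3%), against 5.98% of all genes tested. Collagen and TGF-beta genes are known in vessel cells too, and the part of vascular RNA in the values of those lists was not tested.

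Of the 11 oligodendrocyte markers 10 were lower, at a median of −0.24, with Mog, a myelin protein, at 48.1, 46.7 and 56.9 CPM against 24.9, 38.5 and 35.8 CPM (unadjusted p 0.036). Their summed level overlapped, at 3060 to 5291 CPM in controls and 2173 to 5450 CPM in knockouts. In the saline comparison 0 of these 11 were higher in knockouts (median −0.74). The 8 markers of oligodendrocyte precursors were all higher (median 0.43), but their summed level was 438 CPM in knockout 2 and 90.5 to 240.1 CPM in the other 5 libraries. Without knockout 2 their median was −0.49, and with the replicate block it was 0.17. In the saline comparison 0 of these 8 were higher in knockouts (median −0.49). Microglia markers summed to 118, 275 and 337 CPM in controls and 116, 425 and 249.5 CPM in knockouts. Neuron markers summed to 277 to 581 CPM in controls and 244 to 641 CPM in knockouts. Of the T and NK lymphocyte markers, Cd3e, Cd3d, Cd3g, Nkg7, Klrb1c and Ncr1 were at 0 in all 6 libraries. The sum of that list was 26.7, 62.8 and 1.15 CPM in controls and 26.2, 87.0 and 13.2 CPM in knockouts. Most of it was Ccl5, at 26.1, 62.6 and 0.91 CPM against 26.0, 86.4 and 13.1 CPM. B lymphocyte markers summed to 4.72 to 10.8 CPM in controls and 2.61 to 11.2 CPM in knockouts. In preparations of this kind, fewer cells of a type and less RNA per cell cannot be told apart.

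The genes that lie beside Serpine2 were examined because a knockout allele is inherited together with the DNA around it. Within 5 Mb, 69 other genes were tested and none was called, their median was 0.09, and 1 (1.45%) had an unadjusted p under 0.05. That gene was Scg2, encoding the granule protein secretogranin II, whose end lies 0.354 Mb from Serpine2. It stood at 2.31, 4.17 and 3.79 CPM in controls and at 6.11, 5.71 and 11.8 CPM in knockouts (log2 1.21, SE 0.39, unadjusted p 0.0071). The groups did not overlap under LPS, nor in saline astrocytes, where the difference was 1.26 (SE 0.39, unadjusted p 0.0051, edgeR adjusted p 1). The nearest named genes tested on either side of Serpine2, Mrpl44 and Cul3, gave 0.30 (SE 0.47) and −0.06 (SE 0.27).

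Whether the knockout effect depended on LPS was tested as the difference between its size in LPS and in saline astrocytes. EdgeR called no gene for that difference (0%) and neither did DESeq2, while 473 genes (2.6%) had an edgeR unadjusted p under 0.05. In saline astrocytes themselves 1 gene was called (0.0055%), again Serpine2, 500 had an unadjusted p under 0.05 (2.75%) and 1654 had groups that did not overlap (9.09%). For Serpine2 the effect was −2.36 under LPS and −2.88 in saline, a difference of 0.52 (95% interval −0.20 to 1.24, unadjusted p 0.144). LPS changed 245 genes upward (1.35%) and 38 downward (0.209%) in knockouts. Those counts and the ones in controls come from separate tests and do not show a difference between genotypes, for which the count above is the test. The LPS and the saline comparison share no library. Across the 9499 genes both effects correlated at 0.03, as a description over genes. Over all genes tested, 497 had an edgeR unadjusted p under 0.05 under LPS and 500 in saline. Shared by both injections were 23 genes with the same sign and 7 with opposite signs.

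Arhgap23, a GTPase-activating protein gene, was among those with the same sign. It stood at 53.7, 68.2 and 55.2 CPM in LPS controls and at 38.1, 39.8 and 28.1 CPM in LPS knockouts. Its difference was −0.74 under LPS (SE 0.23, edgeR unadjusted p 0.0053) and −0.64 in saline (SE 0.23, unadjusted p 0.013). In both injections every knockout lay below every control, which the naming rule required under LPS only. Seh1l, Fbxo10 and Taf6 instead had all within-number differences of 1 sign under LPS and of the opposite sign in saline, where the numbers did not pair the samples. Slc43a2 went from −1.01 under LPS to −0.22 in saline (difference −0.79, 95% interval −1.58 to −0.01), and Camk2d from 0.68 to −0.14 (difference 0.82, interval 0.22 to 1.43). None of these differences passed the test over all genes.

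The title's contrast of cell types was tested as the knockout effect in LPS microglia minus that in LPS astrocytes, over 24607 genes and all 24 libraries. EdgeR called none (0%) and DESeq2 called 2 (0.00813%), Wdr25 and Adam1a. By edgeR 1280 genes (5.2%) had an unadjusted p under 0.05. Brain region, preparation and gene annotation went together with cell type. For Serpine2 the difference was 0.44 (95% interval −0.30 to 1.17). The 18 antimicrobial genes tested in astrocytes had a median effect of 0.34 in LPS astrocytes and 0.35 in LPS microglia, and the median of their differences was −0.09. Interferon-induced GTPases had a median of 0.29 in LPS microglia and a median difference of −0.42. No gene of these lists was called.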

How the data were processed

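Each library had a deposited table of read counts per gene, whole numbers that the authors obtained, per the submitters' processing notes, with STAR 2.6.0c and HTSeq (version not given); the notes name GRCm38 and GRCm39, and strand counting was not given in the sources used here. Rows that name no gene (40.0% to 45.7% of reads) were dropped. Genes were tested with edgeR 4.0.16 in R 4.3.3 (TMM scaling, filterByExpr with a minimum count of 10 and total of 15, quasi-likelihood test, two-sided, Benjamini-Hochberg adjusted p under 0.05) on all 12 astrocyte libraries with 1 mean per group. DESeq2 1.42.0 was an alternative, with other scalings, filters, a sex term, a replicate block and single libraries left out. The scripts were tested on simulated data.

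Differences within a replicate number use log2 CPM with a prior count of 2. Same-numbered LPS libraries deviated together from their group means (correlations of 0.297, 0.157 and 0.354 for numbers 1, 2 and 3, and −0.277 to 0.0108 for other pairings). Numbers were therefore taken to pair the LPS samples, while the saline ones did not (−0.0998 to 0.00708). Deviations sum to 0 within a group, so positive values in some pairings push the others down. The labels do not state pairs, and the pairing was read from the same expression data as the within-number differences. A code in the deposited names was shared by both genotypes in numbers 1 and 2 and differed in number 3. Positions are from GENCODE M21 (GRCm38). The comparison and gene lists were chosen with earlier results of these data known. Named genes were the called gene and, per direction, the 12 smallest unadjusted p and 6 largest fold changes among annotated genes averaging at least 5 CPM whose groups did not overlap, and list members with the smallest p or a defining role. Replicates are separate samples per the labels; where they were not separate animals, p-values measure only technical spread.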

Additional observations from a re-analysis of the deposited data

Results flagged for a closer look

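In 3 of the named genes every within-number difference had 1 sign under LPS and the opposite sign in saline, a pattern found in 486 of 18188 genes tested (2.67%). In saline the numbers did not pair the samples, and in numbers 1 and 3 the knockout and the control differed in sex, so the saline signs rest on arbitrary pairs. For Seh1l the LPS effect minus the saline effect was 1.42 on the log2 scale (edgeR unadjusted p 0.0099). For Fbxo10 it was −1.08 (unadjusted p 0.010). For Taf6, a subunit of the general transcription factor TFIID, it was −1.92 (unadjusted p 0.0035), from −1.12 under LPS to 0.79 in saline. All 3 had an edgeR adjusted p of 1 for that difference. The median of the cholesterol synthesis and uptake list was also opposite in sign in each number, −0.08 under LPS and 0.10 in saline, a difference of −0.18 that was not tested. In number 3 the LPS median was −0.00031, and the fitted LPS median was above 0 under 3 alternatives (without control 1, knockout 2 or knockout 3), reaching 0.048 without control 1.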

How the results depend on the processing

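Serpine2 was called under every alternative tried, and no other gene was except without a filter on low counts. Its log2 difference ranged from −2.49 to −2.20 and its edgeR or DESeq2 adjusted p reached 0.0331. With the replicate block it was −2.35 (adjusted p 0.000298); the block called 1 gene, 0 for the LPS minus saline difference and 0 for microglia minus astrocytes, 20 list medians were above 0, and it changed no other call. Without a filter on low counts 26 genes were called (22 higher, 4 lower, of 34277), 13 for LPS minus saline and 44 for microglia minus astrocytes, where DESeq2 called 2. Of 24 of those 26 that were in the table with the filter besides Serpine2, 18 had a highest library over 3 times the next, 12 of the 24 were highest in knockout 1, and each had an adjusted p of 1 with the filter. The cause was not tested. Of 27 list medians 21 were above 0, and 12 to 25 when single libraries were left out, with 12 without control 3 and 12 without knockout 1. Of 487 recomputed list medians 76 changed sign. All 392 recomputed tests of named genes kept their direction and side of the threshold. The naming rule required groups that did not overlap, so a kept direction was largely set by that choice. Apart from Serpine2, the named genes were far from the threshold at the start. With 3 libraries a group and a median SE of 0.47 over genes tested, differences under 2-fold were not detectable for most genes. Differences of 2-fold and more could be missed too. Slc43a2 (log2 −1.01, SE 0.27) and Abca9 (log2 2.16, SE 0.59) were not called.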
